A study of Mus musculus with 6 samples.

Results

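White adipocytes store triglyceride in a single large droplet and secrete hormones, and skeletal muscle holds some of these cells between its fascicles. The 10 white adipocyte genes described here are the transcription factors *Pparg* and *Cebpa*, the droplet proteins *Plin1*, *Plin4* and *Cidec*, the fatty acid binding protein *Fabp4*, and the secreted proteins *Adipoq*, *Lep*, *Cfd* and *Retn*. They were chosen by gene symbol, and all 10 were found among the 23997 symbols listed for each library and among the 13359 genes tested. In the adipocyte lineage PPARγ, the product of *Pparg*, and C/EBPα, the product of *Cebpa*, maintain each other's expression and activate most of the other genes of the group. Their targets coat and enlarge the lipid droplet, carry fatty acids, or are released into the blood as adipokines.

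The libraries came from the gastrocnemius, the large calf muscle, of 21-day-old mice that model Costello syndrome, a RASopathy caused by activating *HRAS* variants, with 1 library per mouse. HrasG12V mice 2276, 2278 and 2279 had the genotype HrasG12V/+ (strain Caggs-Cre+/HrasG12V/+), and WT mice 2277, 2280 and 2281, their littermates, had the genotype Hras+/+ (strain Caggs-Cre-/HrasflG12V/+). All 6 mice therefore carried an unmodified *Hras* allele, and the WT mice carried the floxed allele without the Cre. The Caggs promoter is active in nearly all cells, so the mutant allele was not limited to myofibers or adipocytes. The labels give no sex. Values are FPKM, mapped fragments scaled by transcript length and library size, so levels can be compared between genes per length. In whole muscle, a difference in the number of adipocytes and a difference in RNA per adipocyte cannot be told apart.

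The deposited FPKM summed to 413020 to 814013 per library, with the highest sum in mouse 2276, while the genes tested had a median of 6.39 to 6.64 FPKM in each. In WT mice 2277, 2280 and 2281 *Hras* had 36.8, 36 and 51.8 FPKM, against 58.8, 28.9 and 16 FPKM in HrasG12V mice 2276, 2278 and 2279 (log2 fold change of HrasG12V over WT -0.44 with a standard error, SE, of 0.47, limma adjusted p = 0.797). FPKM adds both alleles, so these values are no check of the genotype. The study reported that reads from HrasG12V muscle held WT and mutant *Hras* transcripts in about equal parts. Of 8 myofiber markers, *Acta1* and *Myh4* were listed at 0 in all 6 libraries, *Ckm* in 5, *Myh1* in 2 and *Tnnt3* in 1, although *Mylpf*, a fast myosin light chain, was at 10759.8 to 36114 FPKM. A value of 0 in these files is therefore not evidence that a gene was silent. No member was listed at 0 in any library.

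Per kilobase, *Fabp4* was the most abundant member, at 580 ± 160 FPKM in WT muscle (SD, n = 3, as for all means below), followed by *Plin4* at 121 ± 14.2. *Cfd*, at 18.9 ± 12.1 FPKM, and *Adipoq*, at 9.58 ± 5.85, came next and overlapped. The other 6 members had WT means of 2.32 (*Lep*) to 5.4 FPKM (*Pparg*), and neighbours in this order did not differ beyond their spread. *Fabp4* is also transcribed in capillary endothelium and *Plin4* in muscle fibers, so the levels of these genes need not come from adipocytes alone.

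Mice differed widely in these genes within each genotype. WT mouse 2281 had the lowest level of 8 of the 10 members, and HrasG12V mice 2278 and 2279 had the 2 highest levels of 7. HrasG12V mouse 2276 was at or below the highest WT mouse for 6 members. The highest level was 32.8 times the lowest for *Plin1*, 30.3 times for *Cfd* and 12.8 times for *Adipoq*, but only 2.01 times for *Pparg* and 1.94 times for *Fabp4*.

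**Figure D1:**
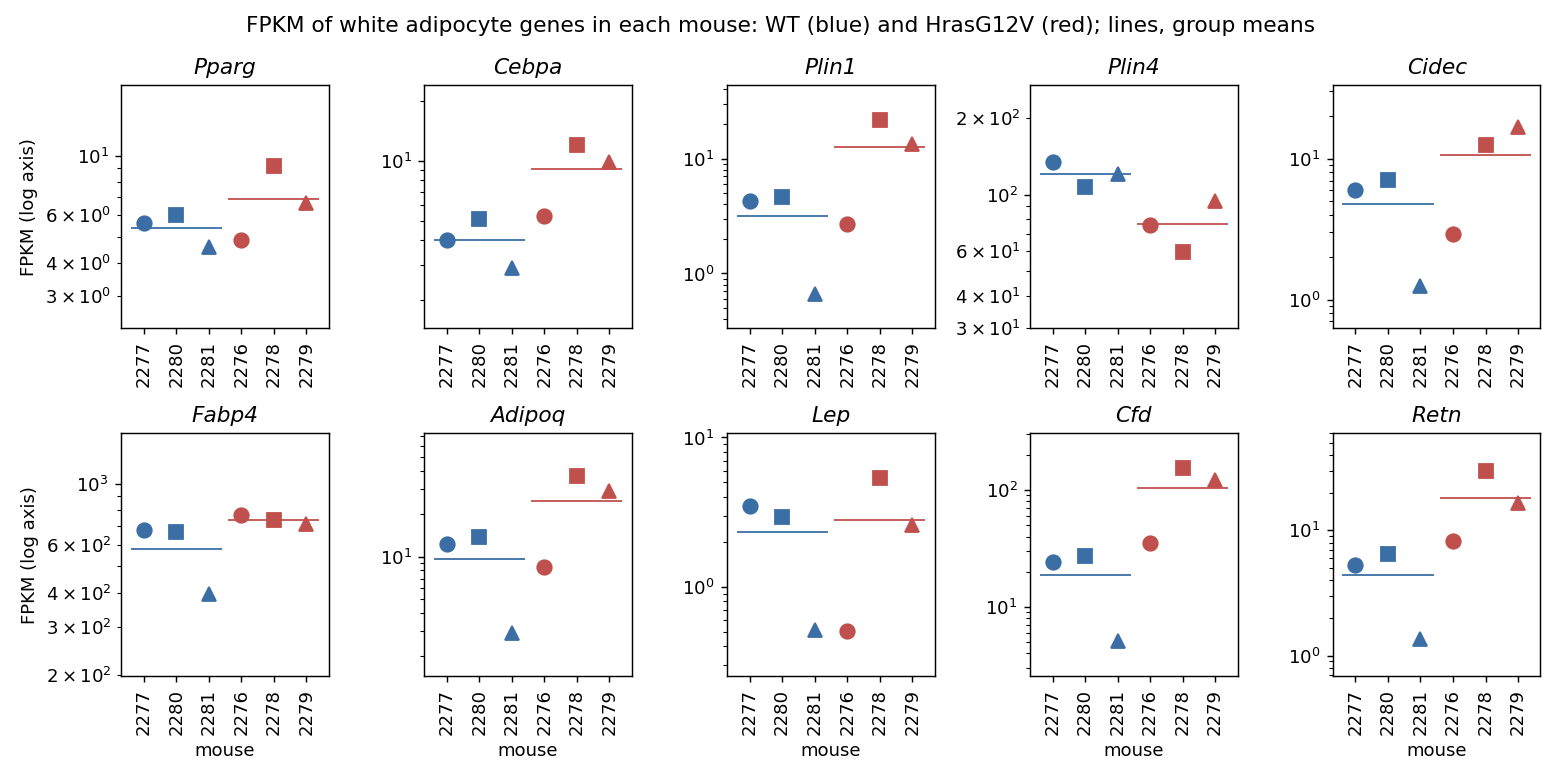
FPKM (log axis, a separate scale for each gene) of the 10 white adipocyte genes in each mouse, WT in blue and HrasG12V in red, with lines at the group means (n = 3). WT mouse 2281 is lowest for 8 genes, HrasG12V mouse 2276 lies near WT mice 2277 and 2280 for most, and Plin4 alone is lower in all 3 HrasG12V mice.

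Genotypes were compared with limma on log2(FPKM + 0.1), a scale on which differences of weakly expressed genes come out too small. Of the 10 members, 9 had a higher mean in HrasG12V muscle and 4 had an unadjusted p below 0.05, against 10.2% of all genes tested. *Cebpa*, *Cfd* and *Retn* were higher (5.18% of all genes were higher by this rule) and *Plin4* was lower (4.99% were lower). After Benjamini-Hochberg adjustment over the 13359 genes no member passed, with limma adjusted p from 0.433 to 0.981, against 0.0599% of all genes. The 3 values of each genotype did not overlap for 5 members, 4 higher (*Cebpa*, *Fabp4*, *Cfd* and *Retn*) and 1 lower (*Plin4*), against 18.5% of all genes. The median log2 fold change of the members was 1.14, and that of all genes tested was -0.03. The members' median was 0.53 without WT mouse 2281 and 1.69 without HrasG12V mouse 2276.

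The count rested on single mice. Without HrasG12V mouse 2276, 7 members had an unadjusted limma p below 0.05 and *Cebpa* also passed the adjustment (limma adjusted p = 0.0339), but in that fit 3979 of the 13359 genes had an unadjusted and 1291 an adjusted p below 0.05, so 1 member of 10 is near the share of all genes. Without mouse 2278 no member had an unadjusted p below 0.05 (0 also after adjustment), against 1294 of all genes. Without mouse 2279 *Plin4* alone did, against 1537 of all genes, and without WT mouse 2281 *Cfd* and *Retn* did, against 606.

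**Figure D2:**
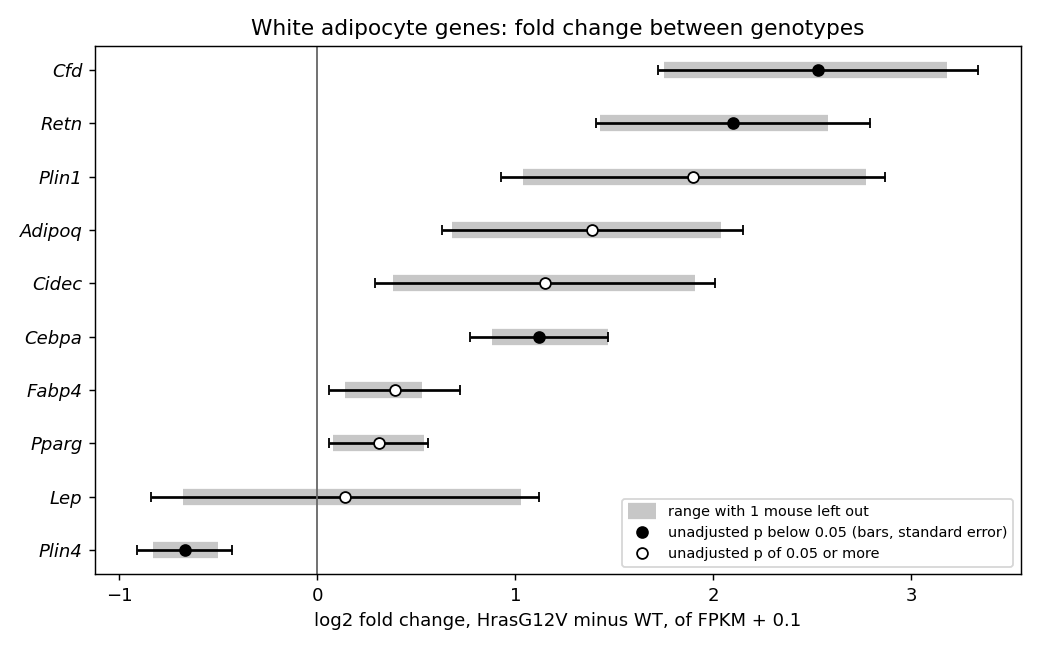
Log2 fold change of FPKM + 0.1, HrasG12V minus WT, of each white adipocyte gene, with its SE (bars) and the range when any 1 mouse is left out (grey). Filled points had an unadjusted limma p below 0.05. Cfd has the largest difference, 2.53, and Lep alone has a range on both sides of 0.

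*Pparg* and *Cebpa* encode the nuclear receptor and the leucine zipper factor at the head of the adipogenic program. In WT mice 2277, 2280 and 2281 *Pparg* had 5.61, 6.03 and 4.56 FPKM, against 4.87, 9.18 and 6.65 FPKM in HrasG12V mice 2276, 2278 and 2279, the order used for all values below. Its genotypes overlapped, mouse 2278 alone standing well above the rest, and the log2 fold change was 0.31 (SE 0.25, limma adjusted p = 0.722). For *Pparg* it was 0.08 without mouse 2278 and 0.54 without mouse 2276, where the unadjusted limma p was 0.0407. *Cebpa* was at 4.02, 5.11 and 2.89 FPKM in WT and at 5.28, 12.1 and 9.96 FPKM in HrasG12V muscle. All HrasG12V mice were above all WT mice, but mouse 2276 exceeded WT mouse 2280 only slightly. The *Cebpa* mean was 9.12 ± 3.5 FPKM against 4.01 ± 1.11, a log2 fold change of 1.12 (SE 0.35, limma unadjusted p = 0.017, adjusted p = 0.433). In GENCODE vM21 on GRCm38 *Pparg* lies on chromosome 6 at 115360951-115490399 (+) and *Cebpa* on chromosome 7 at 35119293-35121928 (+). Each overlaps an antisense gene, *Gm44079* and *Gm45091*. The strand setting used in counting is not given in the sources used here, so reads of these partners may be included.

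The genes of the droplet proteins differed in direction. Perilipin 1, encoded by *Plin1*, coats the adipocyte droplet and gates hormone-stimulated lipolysis. *Plin1* was at 4.29, 4.62 and 0.667 FPKM in WT and at 2.72, 21.9 and 13.3 FPKM in HrasG12V muscle. Mice 2278 and 2279 were high, mouse 2276 lay inside the WT range, and the log2 fold change was 1.90 (SE 0.97, limma adjusted p = 0.561). For *Plin1* it was 1.04 without mouse 2281 and 2.77 without mouse 2276. *Cidec*, whose product fuses small droplets into large ones, was at 6.03, 7.02 and 1.25 FPKM in WT and at 2.91, 12.6 and 16.7 FPKM in HrasG12V muscle. Its pattern was similar, with overlapping genotypes and a log2 fold change of 1.15 (SE 0.86, limma adjusted p = 0.701), which was 0.38 without mouse 2281 and 1.91 without mouse 2276. *Plin1* lies on chromosome 7 at 79720218-79732903 (-) and *Cidec* on chromosome 6 at 113424634-113435760 (-).

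*Plin4*, a perilipin of nascent droplets that muscle also transcribes, was lower in HrasG12V muscle. It was at 135, 107 and 121 FPKM in WT and at 76.3, 59.8 and 94.3 FPKM in HrasG12V muscle, with every HrasG12V mouse below every WT mouse. The means were 76.8 ± 17.3 and 121 ± 14.2 FPKM, a log2 fold change of -0.67 (SE 0.24, limma unadjusted p = 0.0296, adjusted p = 0.469). The study had listed *Plin4* among its decreased genes from these same libraries, so this is not independent evidence. Unlike the other droplet genes, *Plin4* did not set mouse 2281 apart and was lowest in mouse 2278, where *Plin1* was highest. It lies on chromosome 17 at 56100591-56109803 (-) and overlaps the protein-coding gene *Hdgfl2* on the other strand.

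*Fabp4*, the cytosolic carrier of fatty acids, was at 678, 667 and 395 FPKM in WT and at 769, 740 and 713 FPKM in HrasG12V muscle. The HrasG12V mice lay close together (741 ± 27.9 FPKM) and just above WT mice 2277 and 2280, while WT mouse 2281 was far lower. The log2 fold change was 0.39 (SE 0.33, limma adjusted p = 0.727) and became 0.14 without mouse 2281. *Fabp4* lies on chromosome 3 at 10204088-10208576 (-).

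Of 8 endothelial markers 7 had a lower mean in HrasG12V muscle, and *Flt1*, a VEGF receptor, and *Cdh5*, VE-cadherin, had an unadjusted limma p below 0.05 (log2 fold changes -0.91 and -0.66). Their summed level was 248 to 296 FPKM in WT and 197 to 240 FPKM in HrasG12V muscle. No endothelial marker passed after adjustment, and the part of endothelial cells in the *Fabp4* level was not tested.

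Of the 4 adipokines, adiponectin, encoded by *Adipoq*, is made almost solely by adipocytes and raises insulin sensitivity. *Adipoq* was at 12.2, 13.7 and 2.88 FPKM in WT and at 8.4, 36.9 and 28.7 FPKM in HrasG12V muscle. Mouse 2276 lay inside the WT range, and mice 2278 and 2279 lay above it. The log2 fold change of *Adipoq* was 1.39 (SE 0.76, limma adjusted p = 0.592), and was 0.68 without mouse 2281 and 2.04 without mouse 2276. *Lep* encodes leptin, the hormone that reports fat stores to the hypothalamus. It was at 3.5, 2.95 and 0.509 FPKM in WT and at 0.502, 5.36 and 2.61 FPKM in HrasG12V muscle. *Lep* was nearly equally low in WT mouse 2281 and HrasG12V mouse 2276, and the log2 fold change was 0.14 (SE 0.98, limma adjusted p = 0.981). Its sign depended on single mice, since it was 1.03 without mouse 2276 and -0.68 without mouse 2281.

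*Cfd* encodes adipsin, the complement factor D protease of the alternative pathway. It was at 24.3, 27.4 and 5.09 FPKM in WT and at 35.5, 154 and 122 FPKM in HrasG12V muscle. Every HrasG12V mouse was above every WT mouse, mouse 2276 by little and the other two by far. The means were 104 ± 61.4 and 18.9 ± 12.1 FPKM, a log2 fold change of 2.53, or 5.77-fold (SE 0.81, limma unadjusted p = 0.0177, adjusted p = 0.435). *Retn*, which encodes the cysteine-rich hormone resistin, was at 5.3, 6.53 and 1.37 FPKM in WT and at 8.19, 30 and 16.6 FPKM in HrasG12V muscle. It had the same order, with no overlap and mouse 2276 just above WT mouse 2280, and its log2 fold change was 2.10, or 4.29-fold (SE 0.69, limma unadjusted p = 0.0197, adjusted p = 0.439). Leaving out 1 mouse at a time gave 1.75 to 3.18 for *Cfd* and 1.43 to 2.58 for *Retn*, both lowest without WT mouse 2281 and highest without mouse 2276.

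The 4 adipokine genes lie on different chromosomes, and the 250 bases before their RefSeq starts (GRCm38.p6) are shown because their levels differed between mice in partly different ways. The windows are chr16:23146286-23146535 (+) for *Adipoq*, chr10:79890603-79890852 (+) for *Cfd*, chr8:3655520-3655769 (+) for *Retn* and chr6:29059971-29060220 (+) for *Lep*. Capitals mark matches, on either strand, to the C/EBP letters TTGCNNAA, the nuclear receptor core AGGTCA, its direct repeat AGGTCANAGGTCA (which contains the core), the TATA box TATAAA and the CCAAT box CCAAT.
Adipoq: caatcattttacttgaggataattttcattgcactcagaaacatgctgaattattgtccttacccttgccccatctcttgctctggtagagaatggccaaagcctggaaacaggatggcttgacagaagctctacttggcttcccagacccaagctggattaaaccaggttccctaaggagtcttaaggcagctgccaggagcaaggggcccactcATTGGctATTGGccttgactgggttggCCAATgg
Cfd: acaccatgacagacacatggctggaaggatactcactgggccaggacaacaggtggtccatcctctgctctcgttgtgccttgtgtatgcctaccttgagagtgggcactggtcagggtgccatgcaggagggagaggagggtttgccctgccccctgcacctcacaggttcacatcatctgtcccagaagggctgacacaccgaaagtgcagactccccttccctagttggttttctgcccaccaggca
Retn: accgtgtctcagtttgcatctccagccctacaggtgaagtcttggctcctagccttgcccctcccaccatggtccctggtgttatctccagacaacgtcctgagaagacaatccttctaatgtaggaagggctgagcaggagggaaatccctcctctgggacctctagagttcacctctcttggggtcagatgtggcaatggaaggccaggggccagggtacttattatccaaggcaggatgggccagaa
Lep: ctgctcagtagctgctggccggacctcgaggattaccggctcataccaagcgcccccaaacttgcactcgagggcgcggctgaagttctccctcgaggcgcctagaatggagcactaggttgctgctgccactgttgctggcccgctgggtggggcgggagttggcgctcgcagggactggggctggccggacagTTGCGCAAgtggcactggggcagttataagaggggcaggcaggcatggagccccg

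The *Lep* window holds a C/EBP match that starts 55 bases before the start, and the *Adipoq* window holds 3 CCAAT matches within 34 bases of it. No letters of the 5 motifs were found in the *Cfd* and *Retn* windows. RefSeq windows were matched for 9 of the 10 members (12 windows, since *Pparg* has 3 and *Cidec* 2). A C/EBP match stood in 4 of the 12, the *Lep* window, the *Plin1* window, 1 of *Pparg* and 1 of *Cidec*, against 9.56% of 32851 windows of all genes. The core AGGTCA was in 2 of 12 (14% of all), its direct repeat in 0 (0.0335%), TATAAA in 2 (12.4%) and CCAAT in 4 (33.8%). These matches are a description of the letters and not of bound factors. The genes of the 4 adipokines span chromosome 16 at 23146536-23158028 (*Adipoq*), chromosome 10 at 79890853-79892655 (*Cfd*), chromosome 8 at 3655770-3660110 (*Retn*) and chromosome 6 at 29060220-29073877 (*Lep*), all on the plus strand.

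Because *Adipoq* is so restricted to adipocytes, the other 9 members were also expressed as a ratio to *Adipoq* in the same library, a measure that does not change when a library is multiplied by a constant and that was added after the values were seen. *Cfd* was at 1.99, 2.01 and 1.77 times the *Adipoq* FPKM in WT and at 4.22, 4.18 and 4.24 times in HrasG12V muscle. Within each genotype the ratio hardly varied, although *Adipoq* itself varied several fold, and the genotypes were well apart. The mean ratios were 4.21 ± 0.0311 and 1.92 ± 0.135, a log2 difference of 1.14 (SE 0.06), or 2.20-fold.

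*Retn* was at 0.435, 0.478 and 0.477 times *Adipoq* in WT and at 0.974, 0.814 and 0.579 times in HrasG12V muscle, a log2 difference of 0.74 (SE 0.22). *Lep* was at 0.287, 0.216 and 0.177 times *Adipoq* in WT and at 0.0598, 0.145 and 0.0911 times in HrasG12V muscle, a log2 difference of -1.26 (SE 0.42). The *Retn* ratio was thus higher and the *Lep* ratio lower in every HrasG12V mouse, mouse 2276 included, which was furthest from WT for both. With 3 against 3 mice a two-sided exact permutation test cannot give a p below 0.1, so the ratios are a description.

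The ratio of 3 of the 9 members, *Cfd*, *Retn* and *Lep*, did not overlap between genotypes, against 13.7% of all genes divided by *Adipoq* in the same way. *Plin1* was at 0.352, 0.338 and 0.232 times *Adipoq* in WT and at 0.323, 0.593 and 0.464 times in HrasG12V muscle, and *Cidec* at 0.495, 0.514 and 0.432 against 0.346, 0.342 and 0.583 times. Both overlapped, as did *Pparg*, *Cebpa*, *Plin4* and *Fabp4*. A ratio shows that genes changed unequally and not which of them changed.

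The reference mattered. Relative to *Cidec* the log2 difference of *Cfd* was 1.36 without overlap, and relative to *Adig*, another adipocyte gene, it was 1.07 without overlap. Relative to *Plin1* it was 0.57 with overlap, and that of *Retn* was 0.17 with overlap. The *Retn* ratio also overlapped relative to *Cidec* (0.96) and to the mean of *Adipoq*, *Plin1* and *Cidec* (0.62), but not relative to *Adig* (0.68). The *Lep* ratio was lower in every HrasG12V mouse relative to *Plin1* (-1.83) and *Adig* (-1.33) but overlapped relative to *Cidec* (-1.04).

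**Figure D3:**
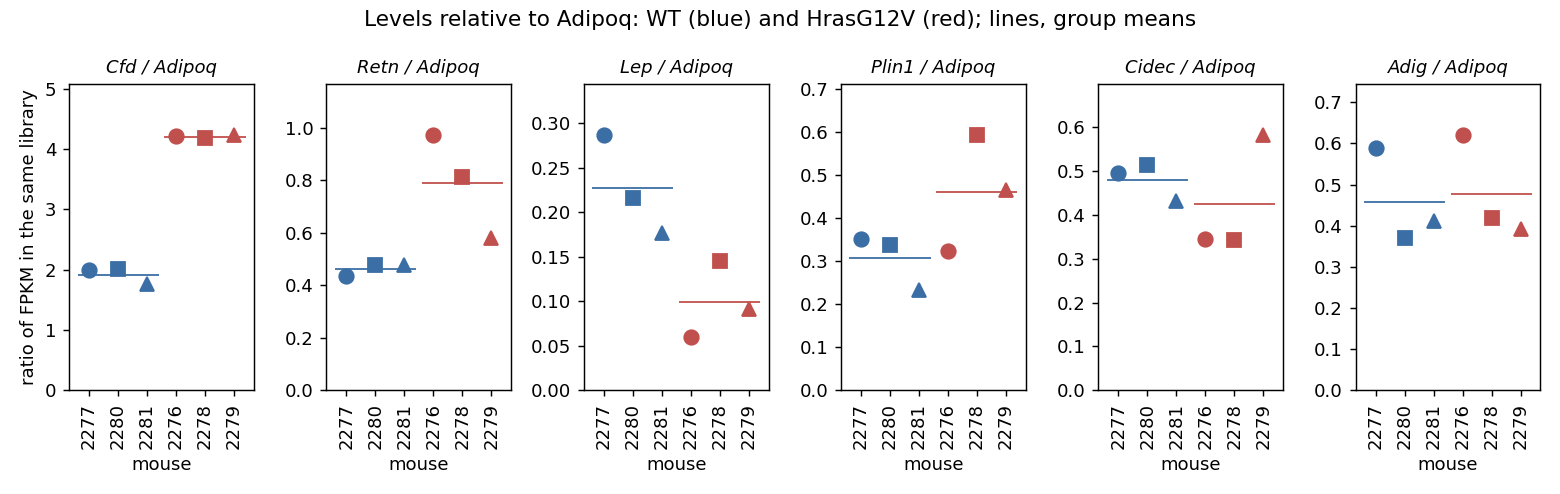
Ratio of FPKM to Adipoq in the same library (linear axis from 0, a separate scale for each gene) in WT (blue) and HrasG12V (red) mice, with lines at the group means (n = 3). Cfd/Adipoq is 1.77 to 2.01 in WT and 4.18 to 4.24 in HrasG12V mice, Retn/Adipoq is higher and Lep/Adipoq lower in every HrasG12V mouse, and Plin1, Cidec and Adig overlap.

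Mouse 2276 differed from the other HrasG12V mice in most of these genes. Over all genes tested its library correlated better with those of the WT mice (Pearson's r across genes 0.893 to 0.903) than with those of mice 2278 and 2279 (0.844 and 0.852). This was not particular to mouse 2276. Mice 2278 and 2279 also correlated better with the WT mice (0.851 to 0.862) than with mouse 2276, and with each other at 0.878. The WT libraries were the closest to one another (0.918 to 0.928). In mice 2278 and 2279 the mean log2 level above the WT mean was 2.77 for *Plin1*, 2.04 for *Adipoq*, 1.91 for *Cidec*, 3.18 for *Cfd* and 2.58 for *Retn*. In mouse 2276 it was 0.16, 0.10, -0.37, 1.23 and 1.14 for the same genes. *Plin4* alone was equally low in both, at -0.68 and -0.66, and *Fabp4* was similar, at 0.37 and 0.45.

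Mice 2278 and 2279 were also the mice with lymphocyte transcripts. The summed level of 10 B and T cell markers was 1.29 to 1.7 FPKM over the WT mice and 2.2 FPKM in mouse 2276, but 98.8 and 91.8 FPKM in mice 2278 and 2279. All 10 had a higher mean in HrasG12V muscle, carried by these mice, and 7 had an unadjusted limma p below 0.05, among them *Cd3d*, a subunit of the T cell receptor complex (log2 fold change 2.39), and *Cd79b*, a subunit of the B cell receptor complex (3.84). In mouse 2276 *Ms4a1* and *Cd8a* were listed at 0 and *Cr2* was at 0.00607 FPKM, below the WT mice. Mice 2278 and 2279 thus stood apart for both white adipocyte and lymphocyte genes, and the part of the lymphocyte signal in the adipocyte result was not tested.

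Levels of Y-linked genes also differed between mice. Their mean log2 level was -2.91 in WT mouse 2277 and -3.06 in HrasG12V mouse 2276, and 3.71 to 3.82 in the other 4 mice, so each genotype held 1 mouse with a low and 2 with a high level. Between the high mice, the HrasG12V minus WT log2 difference was 2.35 for *Adipoq*, 3.17 for *Plin1*, 3.52 for *Cfd*, 2.84 for *Retn* and 1.49 for *Cebpa*. Between mice 2276 and 2277 it was -0.53, -0.64, 0.55, 0.62 and 0.38. *Plin4* was lower in both, at -0.60 and -0.82, and *Lep* went in opposite directions, 1.50 and -2.58. These are single differences without a test.

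Other genes of the adipocyte were read in lists beside the members. Of 12 other adipocyte-enriched genes, 9 had a higher and 3 a lower mean in HrasG12V muscle, with a median log2 fold change of 0.99, which was 0.52 without WT mouse 2281 and 1.49 without mouse 2276. Only *Rbp4*, the retinol carrier, had an unadjusted limma p below 0.05 (log2 fold change 1.05, adjusted p = 0.491). *Mrap*, the accessory protein of the ACTH receptor, was at 0.967, 1.74 and 0 FPKM in WT and at 1.09, 6.17 and 2.77 FPKM in HrasG12V muscle. Its log2 fold change, 2.26, was the highest of the list but rested on the library listed at 0, and was 0.99 without WT mouse 2281. *Angptl4*, a secreted inhibitor of lipoprotein lipase, had the lowest value (log2 fold change -0.39). The list shared the members' order of mice. On the log2 scale its median, minus the WT mean, was 1.60 for mouse 2278, 1.33 for mouse 2279, -0.20 for mouse 2276 and -0.90 for WT mouse 2281, and the members had 1.66, 1.59, 0.13 and -1.38.

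The adipogenic regulators other than *Pparg* and *Cebpa* did not share this order. Of 12 tested, 6 had a positive and 6 a negative log2 fold change, with a median of -0.02 (0.23 without mouse 2278). *Srebf1*, the sterol and fatty acid synthesis factor, was at 8.23, 8.92 and 9.84 FPKM in WT and at 14.9, 17.5 and 20 FPKM in HrasG12V muscle. All HrasG12V mice were well above all WT mice (log2 fold change 0.94, SE 0.17, limma unadjusted p = 0.0011, adjusted p = 0.288), mouse 2276 included. *Ebf2*, a factor of preadipocytes, had the lowest log2 fold change of the list, -0.27.

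Of 14 genes of fatty acid and triglyceride synthesis, 9 had a higher and 5 a lower mean, with a median log2 fold change of 0.64, which was 0.27 without mouse 2278 and 0.98 without mouse 2276. *Agpat2* and *Dgat1*, acyltransferases of triglyceride synthesis, were higher (log2 fold changes 0.91 and 0.44) and *Me1*, the NADPH-producing malic enzyme, was lower (-0.60), each at an unadjusted limma p below 0.05. *Pck1*, which supplies glycerol phosphate in adipocytes, was at 8.37, 7.89 and 0.92 FPKM in WT and at 6.3, 31.8 and 30.9 FPKM in HrasG12V muscle. Like *Adipoq* it was highest in mice 2278 and 2279 and lowest in WT mouse 2281. *Fasn*, fatty acid synthase, was at 2.85, 4.22 and 2.93 FPKM in WT and at 6.32, 53.2 and 6.04 FPKM in HrasG12V muscle. Its genotypes did not overlap, but mouse 2278 stood far above the rest (log2 fold change 1.92, limma unadjusted p = 0.0541, adjusted p = 0.497). *Gpam*, the glycerol phosphate acyltransferase, had the lowest value of the list, -0.79.

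Among 10 genes of lipolysis and lipid uptake the median log2 fold change was -0.02, -0.23 to 0.21 with 1 mouse left out, and -0.26 with array weights. *Adrb3*, the β3 adrenergic receptor of adipocytes, was higher (log2 fold change 1.63), and *Aqp7*, a glycerol channel, and *Cd36*, a fatty acid transporter, were lower (-0.69 and -0.84), each at an unadjusted limma p below 0.05. The genotypes overlapped for *Cd36*, whose call held in 2 of the 6 fits with a mouse left out. *Adrb3* was at 0.226, 0.372 and 0.132 FPKM in WT and at 0.46, 1.45 and 1.11 FPKM in HrasG12V muscle, again with mice 2278 and 2279 highest.

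Of 7 other droplet proteins tested, *Plin5*, the perilipin of oxidative tissue, and *Fitm2*, which buds droplets from the endoplasmic reticulum, were lower like *Plin4* (log2 fold changes -1.31 and -0.95). *Bscl2*, which encodes seipin, was higher (0.46), all 3 at an unadjusted limma p below 0.05. *Plin5* was at 49, 32.5 and 26.6 FPKM in WT and at 26.1, 6.71 and 15.6 FPKM in HrasG12V muscle. Like *Plin4* it was lowest in mouse 2278, but its call held in 1 of the 6 fits with a mouse left out, and its log2 fold change was -0.79 without mouse 2278. *Fitm2* was at 63, 49.6 and 60.6 FPKM against 33.4, 26.9 and 28.8 FPKM, with the genotypes far apart (limma unadjusted p = 0.00179, adjusted p = 0.299). Receptors for the adipokines showed no call. Of 4 tested, none had an unadjusted limma p below 0.05 (0 also after adjustment), with log2 fold changes from -0.33 for the adiponectin receptor *Adipor2* to 0.15 for *Cdh13*, T-cadherin. The genotypes of *Adipor2* did not overlap, as for 18.5% of all genes, and its unadjusted limma p was 0.0257 without moderation.

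Progenitor, brown adipocyte and macrophage markers were read in the same way. Of 12 preadipocyte and fibroadipogenic progenitor markers, none had an unadjusted limma p below 0.05 (0 also after adjustment), from -0.54 for *Lum*, a matrix proteoglycan, to 0.31 for *Dpp4*. Of 7 brown adipocyte markers tested, 3 had a positive and 4 a negative log2 fold change, with a median of -0.09. This median became 0.46 without the filter on low values and 0.62 with at least 1 FPKM in 3 libraries. It also turned to 0.32 without mouse 2278 and 0.14 without mouse 2279. *Ucp1*, the uncoupling protein, was at 1.94, 0.662 and 0 FPKM in WT and at 5.6, 35.8 and 5.92 FPKM in HrasG12V muscle. Mouse 2278 was highest, as for most members, and the 0 of WT mouse 2281 is not read as a low level. Without that mouse the log2 fold change of *Ucp1* was 3.10 (limma unadjusted p = 0.022). *Cidea*, the droplet protein related to *Cidec*, was also higher and *Ppargc1a*, the mitochondrial coactivator, lower (log2 fold changes 1.34 and -0.74), each at an unadjusted limma p below 0.05. *Ucp1* and *Ppargc1a* had been listed by the study from these libraries. Of 8 macrophage markers only *C1qa*, a complement component, had an unadjusted limma p below 0.05 (log2 fold change 0.59), and *Cd163*, a scavenger receptor, was lowest at -0.27. In all, 24 of 110 companion genes tested had an unadjusted limma p below 0.05, against 10.2% of all genes, and 0 an adjusted p below 0.05, against 0.0599%. Outside the lymphocyte list, whose calls rest on mice 2278 and 2279, it was 17 of 100. Of the 24 calls 9 held with any 1 mouse left out, those of *Srebf1*, *Me1*, *Aqp7*, *Fitm2*, *Flt1*, *Cdh5*, *Ucp1*, *Ppargc1a* and *Cd79b*.

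**Figure D4:**
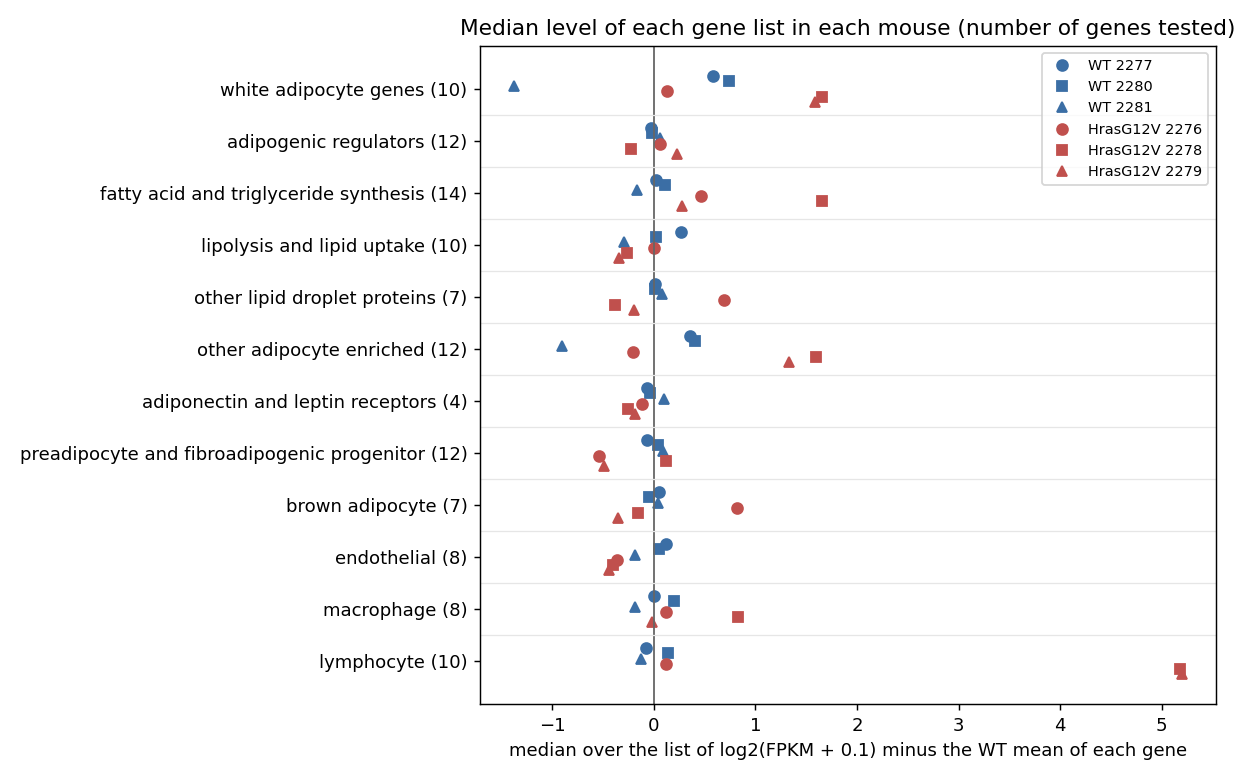
Median over each gene list of log2(FPKM + 0.1) minus the WT mean of each gene, for each mouse (WT blue, HrasG12V red, number of genes tested in brackets). White adipocyte genes and other adipocyte-enriched genes are highest in mice 2278 and 2279 (1.66, 1.59, 1.60 and 1.33), lymphocyte genes lie at 5.18 and 5.20 in the same mice, and adipogenic regulators and adipokine receptors lie between -0.25 and 0.23.

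The genes most like the members in their levels over the 6 libraries were found by the root mean square difference of gene-centred log2 values, among 12168 genes with a mean of at least 1 FPKM. Nearest to the median profile of the members were *Adig*, an adipocyte droplet protein (difference 0.23), *Hp*, which encodes haptoglobin (0.29), *Ifi27l2a*, an interferon-induced gene (0.30), *Smoc1*, a matrix protein (0.31), and *Mgst1*, a glutathione transferase (0.33). The median difference of all candidates was 1.11. Nearest to *Adipoq* were *Prkar2b*, a regulatory subunit of protein kinase A (0.25), *Hp* (0.27), *Adig* (0.29), *Cyfip2* (0.32) and *Cdo1*, cysteine dioxygenase (0.35), against a median of 1.27.

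Within the group *Cidec* lay nearest to *Adipoq* (0.28), then *Plin1* (0.38), *Retn* (0.42), *Cfd* (0.57), *Cebpa* (0.60) and *Lep* (0.71). *Pparg* (0.91), *Fabp4* (0.96) and *Plin4* (1.45) were furthest. *Adig* was at 7.17, 5.07 and 1.18 FPKM in WT and at 5.22, 15.5 and 11.3 FPKM in HrasG12V muscle, highest in mice 2278 and 2279 and lowest in WT mouse 2281, as *Adipoq* was. The nearest neighbours were picked for this likeness, so their fold changes add no test of it.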

How the data were processed

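RNAseq of gastrocnemius muscle from 3 HrasG12V and 3 WT mice was used, with 1 library per mouse and genotypes taken from the labels. The authors made stranded single-end mRNA libraries, mapped reads with TopHat and computed the deposited FPKM per gene with Cufflinks and Cuffnorm, on GRCm38/mm10 per the labels. Their versions and the annotation are not given in these sources. Cuffnorm had scaled the libraries to one another. Steps of 1 read were sought among low values, but only 1.89% to 10% of genes per pair of libraries shared a ratio (within 0.01 on the log10 scale). No count model was therefore used. The study gives an approximate number of reads per sample, but the exact depth of each library and the counting error are unknown here. No intervals on counts are given.

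From the deposited FPKM, log2(FPKM + 0.1) of 13359 genes with a mean of at least 0.5 was compared with limma 3.58.1 (trend, no covariate) in R 4.3.3, with Benjamini-Hochberg adjustment and a threshold of 0.05. p-values measure the spread between these mice. On simulated data with independent noise and only large planted changes, 188 to 194 of 200 changed genes were found in 5 runs. At most 5.52% of unchanged genes had an unadjusted limma p below 0.05. Smaller changes, such as those of most members, were not simulated, so a missing call does not show that a gene was unchanged. Ratios are given without a test. Tables used Python 3.11.15, pandas 2.3.3, numpy 2.4.6, scipy 1.17.1 and matplotlib 3.10.9.

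The members and the 12 companion lists were chosen with earlier results of these data known. Named were all members, the highest, the lowest and every gene with an unadjusted p below 0.05 in a companion list, and the 5 nearest genes to the members' median and to *Adipoq*. Of the lymphocyte list only examples are named, and 1 gene is not reported here. For the myofiber list only values of 0 and *Mylpf* are given, since its extremes, *Myh1* and *Tnnt3*, rest on zeros. *Fasn* and the ratios were chosen after their values were seen. Positions are from GENCODE vM21, promoter windows from RefSeq (GRCm38.p6), and *Fabp4* had no window. Alternatives were pseudocounts of 1 and 0.01, no filter, 1 FPKM in 3 libraries, scaling by quantiles, by medians or to an equal total, no or robust moderation, array weights, the Y-linked level as a covariate, and each mouse left out in turn. Other references for the ratios and the splits by mouse and Y-linked level were added after the data were seen.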

Additional observations from a re-analysis of the deposited data

How the results depend on the processing

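The direction of all 10 members was the same under the 11 settings other than leaving out a mouse, and 103 of the 110 resulting values also stayed on the same side of an unadjusted p of 0.05. No member passed an adjusted p of 0.05 under any of these 11 settings. The number of members with an unadjusted p below 0.05 was 4 in the fit reported, 2 when libraries were rescaled to the same total (*Cfd* and *Retn*) and 1 without moderation (*Plin4*), 6 with array weights, which added *Pparg* and *Plin1*, and 0 to 7 with 1 mouse left out, when 0 to 1 passed the adjustment. Over all genes the count with an unadjusted p below 0.05 was 1358, and became 712 after rescaling to the same total, 3042 with array weights and 606 to 3979 with 1 mouse left out. The count with an adjusted p below 0.05 was 8, and became 5 with a pseudocount of 1, 1 without moderation, 572 with array weights and 7 to 1291 with 1 mouse left out. For companion genes 24 became 12, 15 and 42 after rescaling to the same total, without moderation and with array weights, and 11 to 40 with 1 mouse left out. The cause of these shifts was not tested. The median of the brown adipocyte list turned from -0.09 to 0.46 without a filter and 0.62 with at least 1 FPKM in 3 libraries, when other genes enter or leave it, and to 0.32 without mouse 2278 and 0.14 without mouse 2279. Signs turned for *Cdh13* (-0.08) and *Ebf2* (0.06) with array weights. With 1 mouse left out the log2 fold change ranged from -0.68 to 1.03 for *Lep* (-0.56 without mouse 2278 and -0.05 without mouse 2279), -0.15 to 0.33 for *Cdh13*, -0.10 to 0.15 for *Cldn5*, -0.07 to 0.83 for *Dpp4*, -0.50 to 0.09 for *Ebf2* and -1.14 to 0.04 for *Lum*. The log2 ratio of *Cfd* to *Adipoq* was 1.02 against the mean of *Adipoq*, *Plin1* and *Cidec*, 0.57 against *Plin1* and 1.36 against *Cidec*. That of *Retn* was 0.17 and that of *Lep* -1.83 against *Plin1*. With 1 mouse left out the ratios to *Adipoq* were 1.08 to 1.17, 0.57 to 0.94 and -1.59 to -0.95 for *Cfd*, *Retn* and *Lep*. No paired analysis was possible because the labels give no litter and the genotypes share no replicate numbers, so litters shared by littermates were not modelled. The design limits every statement: 3 mice per genotype, no read counts and no labelled sex.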

Other observations

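*Pck1*, the glyceroneogenic enzyme of adipocytes, was 1 of 6 companion genes measured relative to *Adipoq*, and its ratio did not overlap between genotypes, as for 13.7% of all genes. It was at 0.687, 0.577 and 0.319 times *Adipoq* in WT mice 2277, 2280 and 2281 and at 0.75, 0.861 and 1.08 times in HrasG12V mice 2276, 2278 and 2279, a log2 difference of 0.82 (SE 0.37) that was not tested. The ratios of *Adig* (0.06), *Lgals12* (0.05), *Slc7a10* (-0.30), *Rbp4* (-0.31) and *Tusc5* (-0.56) overlapped. These 6 genes were chosen after their values were seen.

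*Cyfip2* and *Cdo1*, near *Adipoq* in profile, were at 0.209 to 1.12 and 1.49 to 4.26 FPKM in WT mice, at 0.741 and 3.84 FPKM in mouse 2276, and at 3.78 to 3.84 and 14.1 to 18.7 FPKM in mice 2278 and 2279. Of the 10 brown adipocyte markers, *Zic1*, *Lhx8* and *Otop1* were too low to be tested, at no more than 0.888 FPKM in any mouse. Their means in HrasG12V and WT muscle were 0.3 and 0.0664 FPKM for *Zic1*, without overlap, 0.348 and 0.041 FPKM for *Lhx8*, and 0.583 and 0.294 FPKM for *Otop1*. Among those tested that were not called, *Prdm16* (-0.49), *Dio2* (-0.33) and *Cox8b* (-0.09) had a negative and *Elovl3* (0.28) a positive log2 fold change.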
